A study of Homo sapiens with 48 samples.

Results

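The 31 genes described here encode the enzymes and regulators of cholesterol and fatty acid synthesis. They were chosen by symbol, as a list of genes under the control of sterol regulatory element binding proteins (SREBPs), and all 31 were found among the 19102 genes of the table. Of these, 7 act in the early mevalonate pathway, 11 in the squalene and sterol branch, 8 in fatty acid synthesis, and 5 regulate the pathway or carry sterol. The first 18 are called the sterol genes below.

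All 48 libraries were made from polyadenylated RNA of A382, a human glioblastoma line kept in culture. The question was what losing subunits of the EP400/TIP60 complex, a chromatin remodelling and histone acetyltransferase complex, does to gene expression in these cells, beside induction of the tumour suppressor p53. BRD8 and H2AZ (4 libraries each, from 2 guide RNAs with 2 replicates) and 14 other targets (2 libraries each, 1 per guide) were knocked out by lentiviral guide RNAs and collected on day 9. BRD8 is a bromodomain subunit of the complex, H2AZ a histone variant that it exchanges, TIP60 its acetyltransferase, and RUVBL1 and RUVBL2 are ATPases found in several complexes. The other targets were EP400, TRRAP, ACTL6A, MRGBP, ING3, DMAP1, GAS41, MEAF6, VPS72, MORF4L1 and MORF4L2. Control cells carried the guides sgNeg1 to sgNeg4 (2 libraries each). In the second experiment, cells with a doxycycline-inducible p53 (P53, 2 libraries) and cells with a control vector (PCW, 2 libraries) were both given doxycycline and collected on day 2. All groups are the same cell line, so each describes this line only, and the guide RNA cells are infected populations in which some cells may keep the target.

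SREBPs are membrane-bound transcription factors. When sterol is scarce, SCAP escorts them from the endoplasmic reticulum to the Golgi, where they are cleaved, and the released part enters the nucleus and activates lipid synthesis genes; INSIG1 holds SCAP back when sterol is plentiful. SREBF2 encodes the SREBP that mainly drives cholesterol synthesis, and SREBF1 the one that mainly drives fatty acid synthesis and desaturation. Glioblastoma cells are known for a strong demand for lipid, met by synthesis and by uptake.

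The values were FPKM (fragment density scaled to transcript length and library size), deposited in 5 separately normalized sections: BRD8 with sgNeg1, 10 knockouts with sgNeg2, 4 with sgNeg3, H2AZ with sgNeg4, and P53 with PCW. Each knockout was set against the sgNeg pair of its own section by limma on log2(FPKM + 1), and a gene is called where its p, adjusted over all genes tested (Benjamini-Hochberg), is under 0.05. For BRD8 and H2AZ the 4 libraries of 2 guides were fitted as 1 group, so replicates of a guide counted as independent libraries. In the other knockouts each library has its own guide, so their spread includes that between guides. Whether libraries of the same guide or vector came from separate cultures is not stated in the labels, so the spread among them may be technical only. Levels are not compared between sections, except where all 8 sgNeg libraries serve as the control after rescaling. That rescaling shifts a section as a whole and leaves differences of single genes between sections in place. An FPKM of 1 stood for 17.1 to 21.2 fragments per kilobase in the BRD8 section and for 4.3 to 19.4 in the others. Between 8081 and 8158 genes reached an FPKM of 1 in the BRD8 section, against 10503 to 11853 elsewhere. Guide 2 of MEAF6 and guide 2 of VPS72 had the same value in all 19102 genes, and neither was used, so 46 libraries entered the fits and MEAF6 and VPS72 rest on 1 library each. The targeted mRNA was called lower in 8 of 16 knockouts, among them BRD8 (43.1% of control), H2AZ (its gene H2AFZ, 18.6%), TIP60 (its gene KAT5, 51.5%), RUVBL1 (40.1%) and RUVBL2 (28.5%); TRRAP was at 82.3% and not called. Of 8 glioma and astrocyte markers, VIM, CD44 and SOX9 passed 1 FPKM in every library and SOX2 had a median of 30.0, whereas the median of NES was 0.224, OLIG2 was at 0 in 44 libraries, and GFAP and S100B stayed under 1 FPKM. Of 12 markers of other cell types, CD68 alone had a median above 1 FPKM (18.5).

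Promoter sequences are given for 6 genes, chosen by their results or by the motifs in their windows. A shared promoter element is the classical link between SREBPs and the lipid synthesis genes. The windows are the 250 bases before the start of the gene in RefSeq (build GRCh38.p14), 5′ to 3′ on the strand of the gene, and 27 of 31 genes had one. SREBF1, SCD and FADS2 were called lower in BRD8, TIP60, RUVBL1, RUVBL2 and P53, HSD17B7 rose most in P53, and SREBF2 and MSMO1 hold the sterol element and the most CCAAT matches shown. The window of SREBF1 is chr17:17836987-17837236 (minus strand). The others, on the plus strand, are chr22:41832855-41833104 (SREBF2), chr10:100346983-100347232 (SCD), chr11:61815953-61816202 (FADS2), chr4:165327419-165327668 (MSMO1) and chr1:162790452-162790701 (HSD17B7). Capitals mark matches, on either strand, to the sterol regulatory element TCACNCCAC, the E-box CACGTG or the NF-Y box CCAAT. A box on the other strand reads as ATTGG.
SREBF1: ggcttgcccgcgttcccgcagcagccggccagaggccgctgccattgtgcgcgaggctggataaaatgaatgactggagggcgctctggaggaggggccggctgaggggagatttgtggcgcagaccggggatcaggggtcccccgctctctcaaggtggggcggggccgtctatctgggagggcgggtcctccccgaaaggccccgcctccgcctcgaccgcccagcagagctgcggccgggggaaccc
SREBF2: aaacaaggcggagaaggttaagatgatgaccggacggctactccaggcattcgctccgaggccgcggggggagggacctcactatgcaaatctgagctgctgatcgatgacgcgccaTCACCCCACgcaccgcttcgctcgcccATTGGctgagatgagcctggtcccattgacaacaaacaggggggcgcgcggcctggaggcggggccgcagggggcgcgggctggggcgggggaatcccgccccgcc
SCD: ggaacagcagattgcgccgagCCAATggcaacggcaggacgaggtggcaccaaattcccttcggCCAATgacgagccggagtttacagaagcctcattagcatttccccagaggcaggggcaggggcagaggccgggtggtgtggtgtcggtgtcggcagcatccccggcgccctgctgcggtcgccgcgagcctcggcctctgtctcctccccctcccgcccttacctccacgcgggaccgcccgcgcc
FADS2: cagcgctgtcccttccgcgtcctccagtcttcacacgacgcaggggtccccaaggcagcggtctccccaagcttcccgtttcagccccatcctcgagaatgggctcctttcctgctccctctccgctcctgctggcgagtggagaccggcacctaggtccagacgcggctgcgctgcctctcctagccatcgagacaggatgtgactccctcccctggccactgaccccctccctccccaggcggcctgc
MSMO1: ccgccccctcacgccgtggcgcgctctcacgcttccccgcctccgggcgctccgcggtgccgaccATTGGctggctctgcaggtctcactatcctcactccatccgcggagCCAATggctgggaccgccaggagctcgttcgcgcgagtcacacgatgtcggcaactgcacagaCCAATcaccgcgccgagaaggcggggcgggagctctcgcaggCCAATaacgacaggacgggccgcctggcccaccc
HSD17B7: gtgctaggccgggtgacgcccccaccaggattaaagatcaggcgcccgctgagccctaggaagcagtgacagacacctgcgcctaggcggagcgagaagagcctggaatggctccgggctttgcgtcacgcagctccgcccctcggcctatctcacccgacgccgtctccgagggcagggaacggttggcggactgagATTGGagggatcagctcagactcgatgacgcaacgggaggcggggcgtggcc

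The sterol regulatory element in this spelling was found in 0.883% of all 35116 RefSeq windows and, among the 27 genes, in SREBF2 alone. CCAAT was in 32.0% of all windows and in 18 of 27 of these genes (66.7%): in 12 of 15 sterol genes (80.0%), 3 of 7 fatty acid genes (42.9%) and 3 of 5 regulators. MSMO1 held 4 CCAAT matches and SCD 2, while the SREBF1 and FADS2 windows held none of the 3 motifs. CACGTG was in 6.34% of all windows and in 4 of 27 (14.8%). In NSDHL, 2 of the CCAAT matches, on opposite strands, overlap. These are matches of letters in 1 window per gene (the first listed), and nothing was measured at these promoters.

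**Figure D1:**
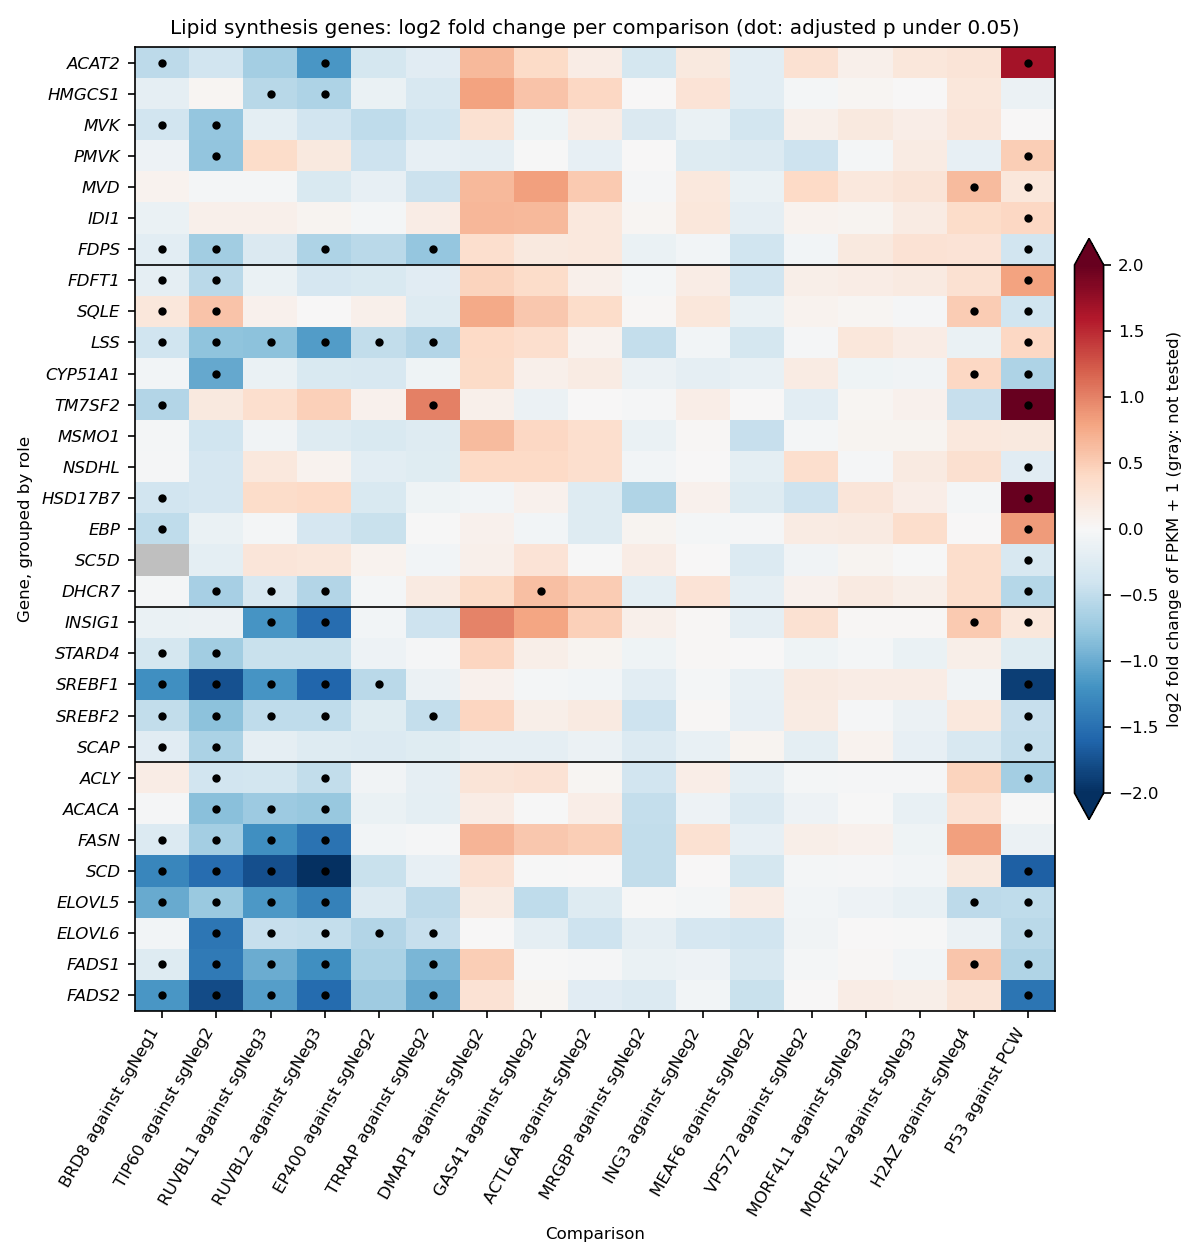
Log2 fold change of FPKM + 1 (colour, cut at -2 and 2) of the 31 genes (rows, grouped by role) in 17 comparisons with their own control (columns); a dot marks a gene called at an adjusted p under 0.05, gray a gene not tested. Dots gather in BRD8, TIP60, RUVBL1, RUVBL2 and P53, where SREBF1, SCD and FADS2 were lower in each, while ACAT2, TM7SF2 and HSD17B7 were higher in P53.

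Over the knockouts, LSS, both SREBP genes and the genes of fatty acid elongation and polyunsaturation were called lower most often. The heatmap of all comparisons shows LSS, lanosterol synthase, called lower in 6 of 16 knockouts, and SREBF1, SREBF2, ELOVL5, ELOVL6, FADS1 and FADS2 in 5 each. SCD, FASN and FDPS were called lower in 4, and FADS1 was also called higher in 1. SQLE, squalene epoxidase, was called higher in 3 and lower in 0. MSMO1, NSDHL, IDI1 and SC5D were called in 0 of the 16, SC5D being untested in BRD8. Of all genes tested, 21.7% were called lower in BRD8, 26.6% in TIP60, 15.5% in RUVBL1 and 19.9% in RUVBL2. In TRRAP this share was 7.71% and in EP400 2.27%. How many of all genes were called lower in as many knockouts was not counted. Knockouts of a section share its sgNeg pair, so their calls are not independent. In the sgNeg2 libraries the highest levels belonged to SCD (357 ± 12.7 FPKM; SD, n = 2), FADS2 (207 ± 15.3) and ACLY (120.0 ± 3.75), and the lowest to SC5D (3.06 ± 0.132), HSD17B7 (2.95 ± 0.0732) and TM7SF2 (1.90 ± 0.0391). SC5D and HSD17B7 did not differ there beyond their spread.

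After BRD8 knockout, SCD, SREBF1, FADS2 and ELOVL5 fell most. Of the 30 genes tested, 17 were called lower and 1 higher, beside 21.7% and 24.2% of all 8458 genes tested (45.9% called). Their median log2 fold change was -0.22, against 0.02 over all genes tested. By role, 5 of 8 fatty acid genes, 4 of 5 regulators and 8 of 17 sterol genes were called lower. The counts of lower genes include TM7SF2, which reached 1 FPKM in the BRD8 section in its sgNeg1 libraries alone. Its lower call therefore supports nothing. In bulk RNA, fewer cells expressing a gene and less RNA per cell cannot be told apart.

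SCD, which makes monounsaturated fatty acids, had 5.19, 5.24, 6.13 and 5.88 FPKM in the 4 BRD8 libraries, against 15.5 and 15.0 in the sgNeg1 pair, a log2 fold change of -1.30 ± 0.07 (SE; adjusted p = 3.44e-06, limma). SREBF1 had 2.78, 2.39, 2.94 and 2.79 FPKM in BRD8 libraries, against 7.61 and 7.69 in sgNeg1 (-1.22 ± 0.07, adjusted p = 4.29e-06). In FADS2, the first desaturase of polyunsaturated fatty acid synthesis, the values were 21.6, 21.3, 26.3 and 24.0 FPKM in BRD8 libraries and 54.0 and 52.98 in sgNeg1 (-1.17 ± 0.08). All 4 BRD8 libraries lay below both controls in these 3 genes, whose means stood at 36.8% (SCD), 35.6% (SREBF1) and 43.6% (FADS2) of control. ELOVL5, an elongase of polyunsaturated fatty acids, had 4.12, 4.22, 5.17 and 5.02 FPKM in BRD8 libraries, against 11.2 and 9.54 in sgNeg1 (-1.01 ± 0.10). FASN, fatty acid synthase, fell less: 16.9, 16.3, 16.1 and 17.4 FPKM in BRD8 libraries, against 19.9 and 21.0 in sgNeg1 (-0.28 ± 0.06, adjusted p = 0.00347). The enzymes that supply and carboxylate acetyl-CoA, ACLY (0.14 ± 0.05, adjusted p = 0.054) and ACACA (-0.02 ± 0.08, adjusted p = 0.833), were not called.

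**Figure D2:**
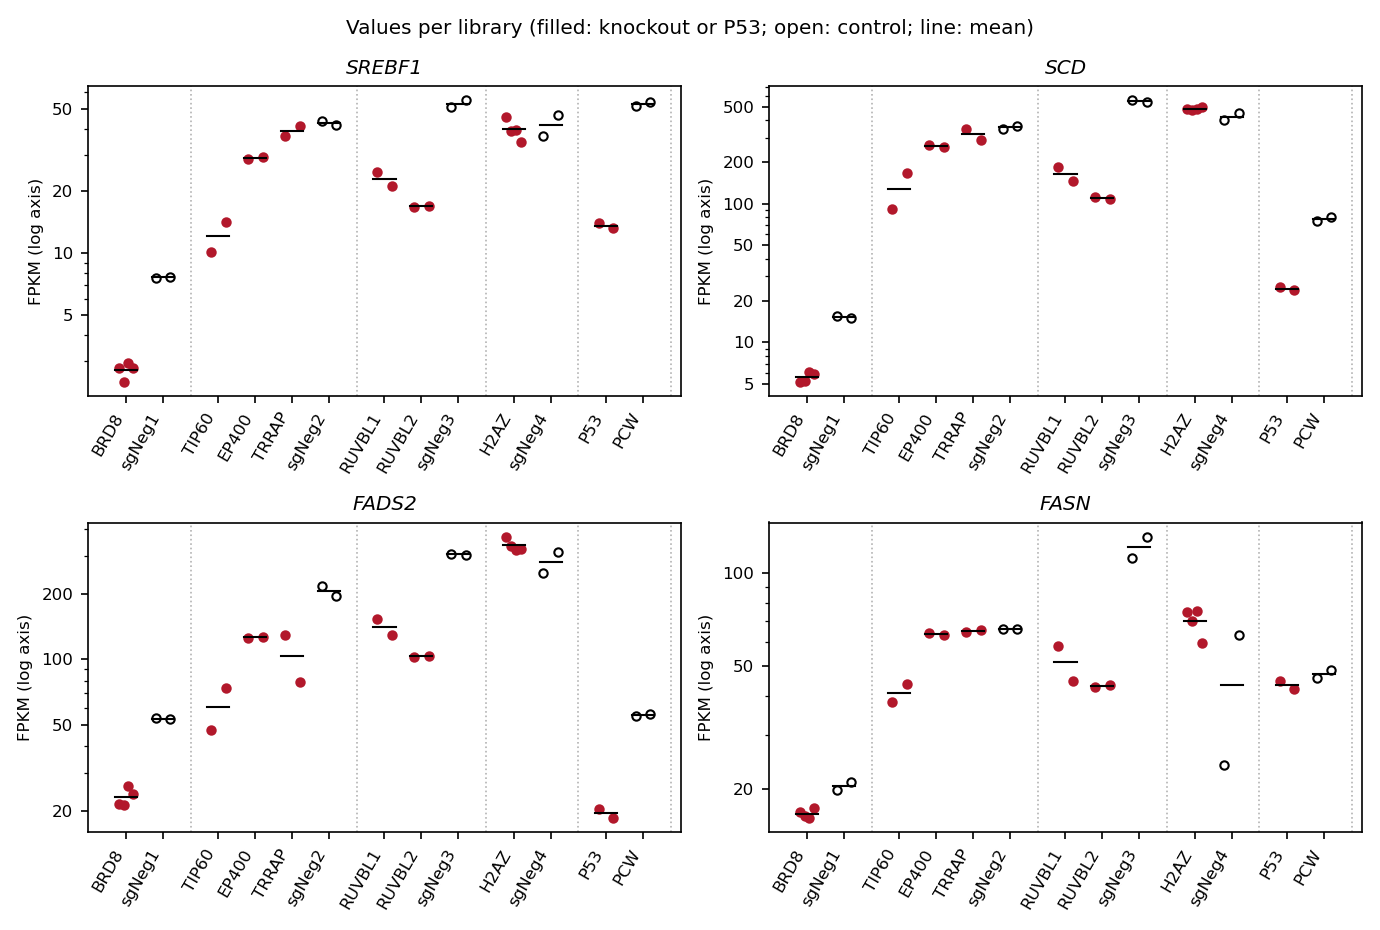
FPKM (log axis) of SREBF1, SCD, FADS2 and FASN in each library of the groups named on the horizontal axis; filled points are knockouts or P53, open points controls, lines group means, and dotted lines separate sections, between which levels are not comparable. In SREBF1, SCD and FADS2 the BRD8, TIP60, RUVBL1, RUVBL2 and P53 libraries lie below their own controls, whereas P53 and PCW values of FASN lie close together and the sgNeg4 pair of FASN is uneven, at 24.0 and 63.1 FPKM.

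In the sterol genes the BRD8 changes were smaller. EBP, the sterol isomerase, had 1.96, 2.15, 2.18 and 2.30 FPKM in BRD8 libraries, against 3.46 and 3.46 in sgNeg1 (-0.50 ± 0.07, adjusted p = 0.000353). ACAT2, the thiolase that starts the pathway, had 9.74, 10.3, 11.0 and 10.6 FPKM in BRD8 libraries, against 15.4 and 15.3 in sgNeg1 (-0.52 ± 0.06), and the exon-sharing gene TCP1 did not move with it (0.00, adjusted p = 0.993). In LSS the values were 18.6, 19.3, 19.1 and 20.1 FPKM in BRD8 libraries and 25.0 and 26.8 in sgNeg1 (-0.41 ± 0.06). In each of these genes the BRD8 libraries lay below both controls. SREBF2 had 4.25, 4.56, 4.79 and 4.81 FPKM in BRD8 libraries, against 7.52 and 6.32 in sgNeg1 (-0.50 ± 0.08, adjusted p = 0.000777). SCAP had 4.11, 3.97, 4.24 and 4.33 FPKM in BRD8 libraries, against 4.82 and 5.25 in sgNeg1 (-0.23 ± 0.07, adjusted p = 0.0183). INSIG1 had 1.80, 2.03, 1.70 and 1.63 FPKM in BRD8 libraries, against 1.99 and 2.11 in sgNeg1, which overlap (-0.13 ± 0.08, not called). MVK, mevalonate kinase, and STARD4, a sterol carrier, fell by 0.38 and 0.36 on the log2 scale.

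TM7SF2, a sterol reductase, passed the filter on low values in this section through its sgNeg1 libraries alone: it had 0.654, 0.853, 0.849 and 0.703 FPKM in BRD8 libraries, against 1.41 and 1.93 in sgNeg1 (-0.59 ± 0.09), and with all 8 sgNeg libraries as the control, after rescaling the sections, the value was 0.34. HSD17B7, a sterol ketone reductase (-0.38 ± 0.09, turning to 0.0954 against all 8), and SQLE (0.22 ± 0.07, turning to -0.0043), the gene called higher, were likewise not stable to that choice. The control of all 8 sgNeg libraries spans the sections, so differences between sections were not told apart from these turns. SC5D, a sterol desaturase, was below the filter: 0.717, 0.833, 0.820 and 0.816 FPKM in BRD8 libraries, against 0.610 and 0.459 in sgNeg1. The remaining 9 tested genes, among them HMGCS1, IDI1, CYP51A1, NSDHL and DHCR7, ranged in log2 fold change from -0.17 (HMGCS1) to 0.07 (MVD) and were not called. Of the 18 calls, 11 held with any 1 library left out, those of SREBF1, SCD, FADS2, ELOVL5, FASN and SREBF2 among them; those of FADS1, FDFT1, FDPS, HSD17B7, SCAP, SQLE and STARD4 did not. The 11 include TM7SF2, whose lower call supports nothing, since the filter was kept from the full section. When the spread was estimated over the guide RNA libraries of all sections, 8 of the 30 genes were called, beside 2007 of 8458 genes over all.

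After TIP60 knockout all fatty acid synthesis genes fell, together with SREBF1, SREBF2, SCAP and STARD4. Of 31 genes, 19 were called lower and 1 higher, beside 26.6% and 15.4% of the 11382 genes tested (42% called), and the median was -0.67 against -0.09 over all genes. All 8 fatty acid genes, 4 of 5 regulators and 7 of 18 sterol genes were called lower. Rescaling each library to a median of 0 over all genes raised the median of all genes by 0.10 in TIP60 and by 0.12 in P53; it moved the share of calls that were higher in TIP60 to 49.3%, against 36.7% as deposited, with 18 of the 31 genes lower and 1 higher. The changes below are to be read against the median of all genes.

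SREBF1 had 10.2 and 14.2 FPKM in the TIP60 libraries, against 43.6 and 41.5 in the sgNeg2 pair (-1.74 ± 0.14, adjusted p = 8.01e-07). ELOVL6, which elongates saturated fatty acids, had 6.89 and 5.85 FPKM in TIP60 libraries, against 19.4 and 18.5 in sgNeg2 (-1.44 ± 0.14). In FADS2 the values were 47.5 and 74.0 FPKM in TIP60 libraries and 218 and 197 in sgNeg2 (-1.79 ± 0.22), and in FADS1, the next desaturase of that path, 16.5 and 22.7 FPKM in TIP60 libraries and 52.0 and 54.1 in sgNeg2 (-1.41 ± 0.21). Both TIP60 libraries lay below both controls in all of these genes, guide 1 lower than guide 2 in all but ELOVL6. SCD had 91.3 and 166 FPKM in TIP60 libraries, against 348 and 366 in sgNeg2 (-1.53 ± 0.22), so that the guides differed more than the controls did. ACACA, the carboxylase that commits acetyl-CoA to fatty acids, had 5.04 and 5.78 FPKM in TIP60 libraries, against 9.48 and 11.5 in sgNeg2 (-0.84 ± 0.13, adjusted p = 0.000122).

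CYP51A1, the lanosterol demethylase, had 8.46 and 9.39 FPKM in TIP60 libraries, against 18.3 and 20.1 in sgNeg2 (-1.02 ± 0.13, adjusted p = 3.24e-05). LSS, 1 step before it, had 29.1 and 27.5 FPKM in TIP60 libraries, against 50.8 and 49.3 in sgNeg2 (-0.80 ± 0.12). SQLE, which makes the substrate of LSS, went the other way, with 35.5 and 35.7 FPKM in TIP60 libraries, against 23.0 and 24.5 in sgNeg2 (0.57 ± 0.16, adjusted p = 0.0101). Neighbouring steps of the branch thus moved in opposite directions. Among the regulators, SREBF2 had 16.1 and 21.1 FPKM in TIP60 libraries, against 31.6 and 35.2 in sgNeg2 (-0.82 ± 0.14). SCAP had 9.41 and 9.68 FPKM in TIP60 libraries, against 15.4 and 15.3 in sgNeg2 (-0.64 ± 0.11). INSIG1 had 8.16 and 11.5 FPKM in TIP60 libraries, against 11.1 and 10.2 in sgNeg2, so the groups overlapped (-0.12 ± 0.18, not called). HMGCS1, MVD and IDI1, which act early in the mevalonate pathway, had log2 fold changes of 0.04, -0.03 and 0.10 and were not called, whereas MVK (-0.77), PMVK (-0.79) and FDPS (-0.69) fell. Of the 20 calls, 14 held with any 1 library left out; those of ACLY, ELOVL5, FDFT1, FDPS, SQLE and STARD4 did not. The 11 genes not called in TIP60 were INSIG1 and 10 sterol genes, ACAT2, HMGCS1, MVD, IDI1, TM7SF2, MSMO1, NSDHL, HSD17B7, EBP and SC5D.

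RUVBL1 and RUVBL2 encode partner ATPases, and their knockouts lowered fatty acid synthesis genes together with INSIG1. In RUVBL1, 13 of 31 genes were called lower and 0 higher, beside 15.5% and 12.3% of the 11063 genes tested (27.8% called). In RUVBL2, 16 were lower and 0 higher, beside 19.9% and 13.5% (33.4% called). The medians were -0.33 in RUVBL1 and -0.47 in RUVBL2, against -0.02 and -0.05 over all genes. Of the fatty acid genes, 7 of 8 fell in RUVBL1 and 8 of 8 in RUVBL2, with medians of -1.05 and -1.29. Of the 18 sterol genes, 3 fell in RUVBL1 and 5 in RUVBL2, with medians of -0.05 and -0.30. These comparisons share the sgNeg3 pair. With all 8 sgNeg libraries as the control, after rescaling the sections, the medians were 0.09 in RUVBL1 and -0.06 in RUVBL2. In RUVBL1, 4 genes were then lower and 3 higher, beside 3235 genes called over all. In RUVBL2, 7 were lower and 2 higher, beside 3725. That control spans the sections, so it cannot tell a dependence on the sgNeg3 pair from differences between sections. The sum of 4 leukocyte markers was 14.9 to 15.6 FPKM in RUVBL1 libraries and 12.2 to 12.3 in RUVBL2 libraries, against 24.0 to 24.3 in sgNeg3, and its part in these results was not tested.

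SCD had 185 and 145 FPKM in RUVBL1 libraries and 113 and 109 in RUVBL2 libraries, against 560.2 and 547 in the sgNeg3 pair (-1.75 ± 0.19 in RUVBL1 and -2.31 ± 0.19 in RUVBL2). FASN had 58.3 and 44.8 FPKM in RUVBL1 libraries and 42.7 and 43.5 in RUVBL2 libraries, against 112 and 131 in sgNeg3 (-1.23 ± 0.24 and -1.47 ± 0.24). SREBF1 had 24.7 and 21.2 FPKM in RUVBL1 libraries and 16.8 and 16.9 in RUVBL2 libraries, against 50.7 and 55.0 in sgNeg3 (adjusted p = 0.000488 and 9.14e-05). All knockout libraries lay below both controls in these genes. In FADS2 the values were 154 and 129 FPKM in RUVBL1 libraries and 103 and 104 in RUVBL2 libraries, against 307 and 301 in sgNeg3. ELOVL5 had 32.2 and 26.5 FPKM in RUVBL1 libraries and 25.7 and 25.1 in RUVBL2 libraries, against 64.9 and 67.8 in sgNeg3 (log2 fold changes of -1.15 and -1.35). FADS1 had 43.7 and 34.4 FPKM in RUVBL1 libraries and 33.1 and 32.6 in RUVBL2 libraries, against 78.4 and 77.5 in sgNeg3 (-0.99 and -1.22).

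INSIG1, the sterol-regulated brake on SCAP, had 11.9 and 9.03 FPKM in RUVBL1 libraries and 7.64 and 8.27 in RUVBL2 libraries, against 24.4 and 25.2 in sgNeg3 (-1.18 ± 0.15 and -1.53 ± 0.15, adjusted p = 0.0012 and 0.000215). LSS had 39.4 and 40.7 FPKM in RUVBL1 libraries and 31.7 and 32.9 in RUVBL2 libraries, against 71.3 and 70.9 in sgNeg3 (-0.81 and -1.11). HMGCS1, the synthase at the head of the mevalonate pathway, fell by 0.56 in RUVBL1 and by 0.62 in RUVBL2 on the log2 scale. Most other sterol genes were not called. SQLE had 41.4 and 39.7 FPKM in RUVBL1 libraries and 38.6 and 38.8 in RUVBL2 libraries, against 38.3 and 38.3 in sgNeg3, above both controls but not called. SREBF2 had 33.7 and 31.6 FPKM in RUVBL1 libraries and 33.6 and 31.6 in RUVBL2 libraries, against 44.7 and 48.7 in sgNeg3 (-0.50 and -0.51, turning to 0.0864 and 0.0842 against all 8 sgNeg libraries). DHCR7, the last reductase of the pathway (-0.33 and -0.59), and ELOVL6 (-0.46 and -0.47) likewise turned above 0 there. SCAP had 14.3 and 14.2 FPKM in RUVBL1 libraries and 13.4 and 13.4 in RUVBL2 libraries, against 15.5 and 17.0 in sgNeg3, and was not called.

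ACAT2 had 16.5 and 19.6 FPKM in RUVBL2 libraries, against 41.9 and 41.0 in sgNeg3 (-1.16 ± 0.24), while TCP1, whose exons it overlaps on the other strand, had a log2 fold change of 0.38 (adjusted p = 0.0546). Set directly against each other, RUVBL2 and RUVBL1 differed in 0 of the 31 genes and in 1 of 11063 genes over all (0.00904%, limma); at an unadjusted p under 0.05 these numbers were 6 and 594, and 2 of the 31 were called when these 4 libraries were fitted alone. With any 1 library left out, 7 of 13 calls held in RUVBL1 (LSS, INSIG1, SREBF1, SCD, ELOVL5, FADS1 and FADS2) and 10 of 16 in RUVBL2 (these and HMGCS1, DHCR7 and FASN). In every such fit the count fell in both knockouts, and so did the count over all genes. Each of these fits leaves 1 library in a group.

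In P53 libraries several sterol genes rose, while SREBF1 and most fatty acid genes fell. Of 31 genes, 15 were called lower and 10 higher in P53 against PCW, beside 46.7% and 37.6% of the 12203 genes tested, so the 25 calls are close to the share over all genes (84.3%). By role the calls were unlike: of the fatty acid genes 6 of 8 fell and 0 rose (median -0.57), and of the regulators 3 of 5 fell and 1 rose. Of the 18 sterol genes 9 rose and 6 fell (median 0.21), against a median of -0.13 over all genes.

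HSD17B7, the sterol ketone reductase, had 18.8 and 18.3 FPKM in P53 libraries, against 1.62 and 1.03 in PCW libraries (3.09 ± 0.12, adjusted p = 4.18e-07). TM7SF2 had 43.1 and 41.0 FPKM in P53 libraries, against 6.86 and 7.07 in PCW (2.43 ± 0.06, adjusted p = 5.05e-08). ACAT2 had 25.1 and 26.7 FPKM in P53 libraries, against 7.87 and 7.21 in PCW (1.66 ± 0.07). These 3 genes, at different steps of the pathway, had the largest rises of the 31. TCP1 and SOD2, both overlapping ACAT2 on the other strand, fell by 1.22 and 0.77, and VPS51, which shares 7 exon bases with TM7SF2, fell by 0.36. FDFT1, squalene synthase, had 52.1 ± 1.09 FPKM in P53 libraries and 29.3 ± 0.512 in PCW (SD, n = 2 each; log2 fold change 0.81). EBP (0.85), PMVK, phosphomevalonate kinase (0.49), LSS (0.42) and IDI1, the isopentenyl diphosphate isomerase (0.42) rose by less. CYP51A1 (-0.61), DHCR7 (-0.57), SQLE (-0.40) and FDPS, farnesyl diphosphate synthase (-0.38) fell.

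SREBF1 had 14.0 and 13.2 FPKM in P53 libraries, against 51.7 and 53.9 in PCW (-1.88 ± 0.06, adjusted p = 1.17e-07). SCD had 25.0 and 23.7 FPKM in P53 libraries, against 74.6 and 80.8 in PCW (-1.63 ± 0.06). FADS2 had 20.5 and 18.6 FPKM in P53 libraries, against 55.2 and 56.4 in PCW (-1.47 ± 0.06). All P53 values were below both PCW values in these genes. ACLY, which makes acetyl-CoA from citrate, had 83.6 and 86.3 FPKM in P53 libraries, against 134 and 138 in PCW (-0.67 ± 0.04). FASN had 44.9 and 42.3 FPKM in P53 libraries, against 45.7 and 48.7 in PCW (-0.11 ± 0.06, adjusted p = 0.0961), and ACACA was at 14.5 and 13.5 FPKM in P53, against 13.9 and 14.3 in PCW, so neither was called. SREBF2 had 17.9 and 17.98 FPKM in P53 libraries, against 24.2 and 25.9 in PCW (-0.46 ± 0.06). SCAP had 17.7 and 18.1 FPKM in P53 libraries, against 24.2 and 26.4 in PCW (-0.47 ± 0.06). INSIG1 had 6.66 and 5.66 FPKM in P53 libraries, against 5.22 and 4.95 in PCW (0.23 ± 0.09, adjusted p = 0.0463). The sum of 4 leukocyte markers, almost wholly CD68, was 25.5 to 25.7 FPKM in P53 libraries, against 8.97 to 10.1 in PCW. That of 3 endothelial markers was 3.16 to 3.35 FPKM in P53 libraries, against 0.150 to 0.222 in PCW, and that of 3 epithelial markers 0.6998 to 0.729 in P53, against 0.0497 to 0.0652 in PCW. Their part in these results was not tested. Of the 25 calls, 21 held with any 1 library left out; those of INSIG1, MVD, NSDHL and SC5D did not. After rescaling, 13 of the 31 were lower and 11 higher.

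**Figure D3:**
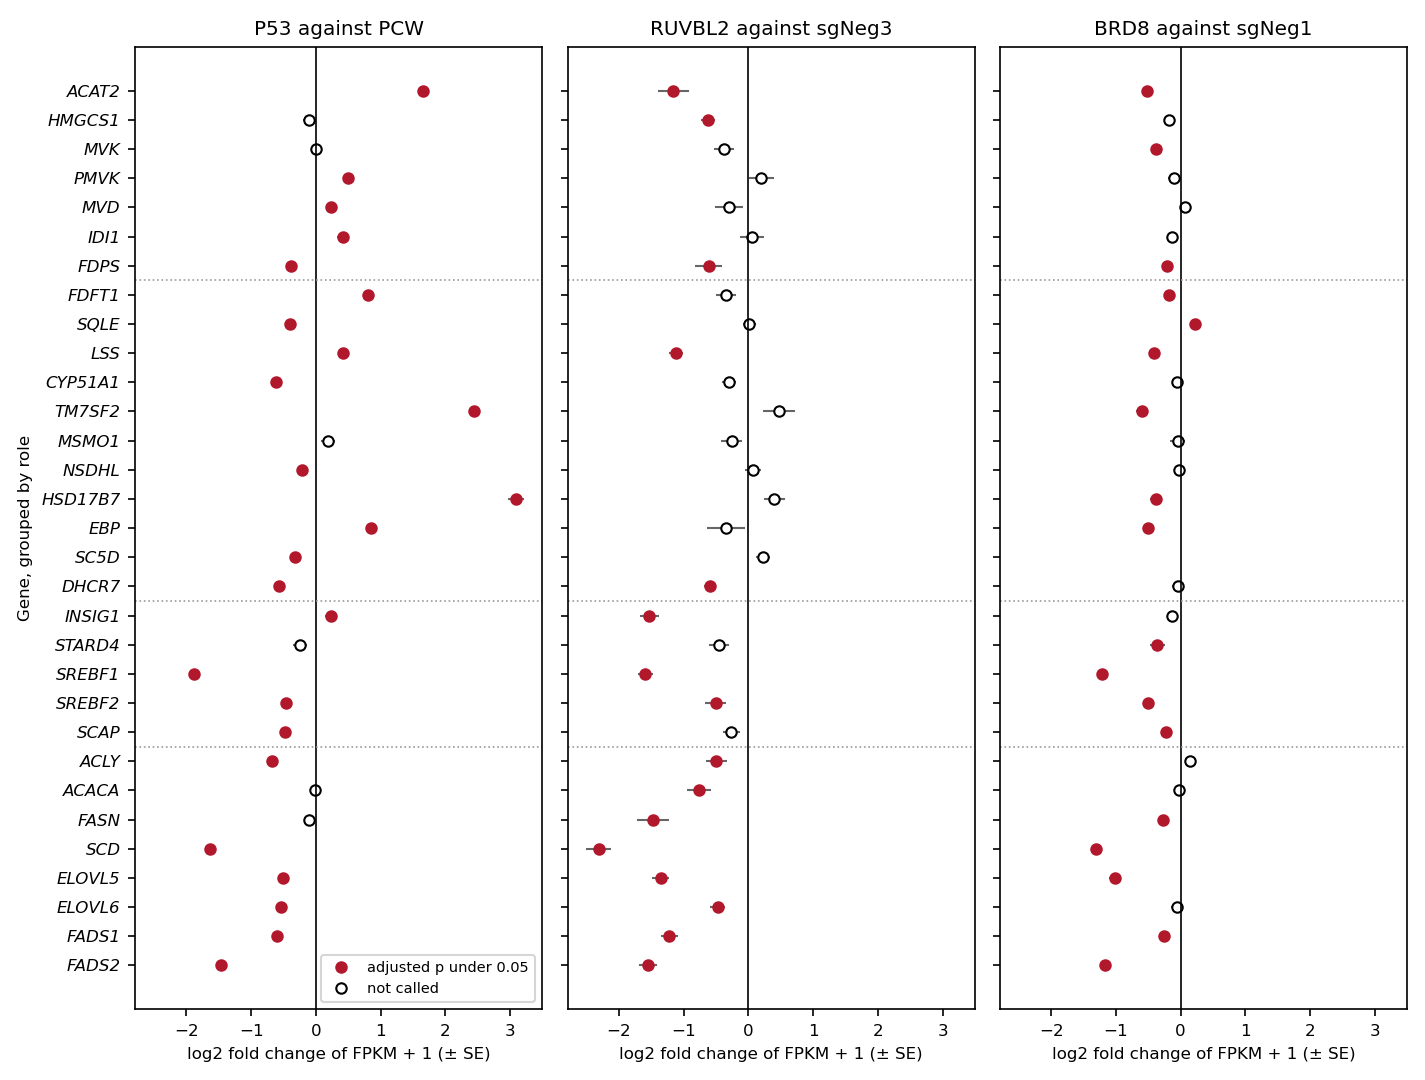
Log2 fold change of FPKM + 1 with its SE (bars) of the 31 genes, grouped by role, for P53 against PCW, RUVBL2 against sgNeg3 and BRD8 against sgNeg1; filled points are called at an adjusted p under 0.05, and SC5D has no point for BRD8 because it was not tested. In the lowest block the fatty acid genes lie at or left of 0 in P53 and RUVBL2. HSD17B7, TM7SF2 and ACAT2 lie at 3.09, 2.43 and 1.66 in P53 and at 0.40, 0.48 and -1.16 in RUVBL2. In BRD8, ACAT2 and HSD17B7 lie below 0, HSD17B7 turning to 0.0954 against all 8 sgNeg libraries after rescaling. TM7SF2 passed the filter in the BRD8 section through sgNeg1 alone, so its filled point there supports nothing.

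The difference between a knockout effect and the P53 effect was tested across the sections. It was called for 21 of 30 genes between BRD8 and P53 (76.7% of all genes tested), 20 of 31 for H2AZ (63.2%), 15 for TIP60 (60.1%), 16 for RUVBL1 (56.9%) and 15 for RUVBL2 (56.5%), so these shares are near or below those of all genes. Of the genes that rose most in P53, the TIP60 effect minus the P53 effect was -3.43 ± 0.29 (SE) in HSD17B7, -2.23 ± 0.32 in TM7SF2 and -2.05 ± 0.28 in ACAT2. In RUVBL2 minus P53 these were -2.69 ± 0.23, -1.96 ± 0.31 and -2.82 ± 0.30. SREBF1 did not differ detectably between TIP60 and P53 (0.14 ± 0.18, adjusted p = 0.527) or RUVBL2 and P53 (0.29 ± 0.14, adjusted p = 0.0956). For FADS2 the difference was not called either, in TIP60 (-0.32 ± 0.29) or RUVBL2 (-0.08 ± 0.15). RUVBL2 minus P53 was -1.36 ± 0.30 in FASN (adjusted p = 0.00269), which was not called in P53, and -1.76 ± 0.19 in INSIG1, which rose in P53. In BRD8, SREBF1 fell less on this scale than in P53 (difference 0.66 ± 0.10, adjusted p = 5.52e-05). Its controls were at 7.61 and 7.69 FPKM in sgNeg1, against 51.7 and 53.9 in PCW. The added 1 FPKM shrinks the effect more at the lower level, and its part in this difference was not tested.

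**Figure D4:**
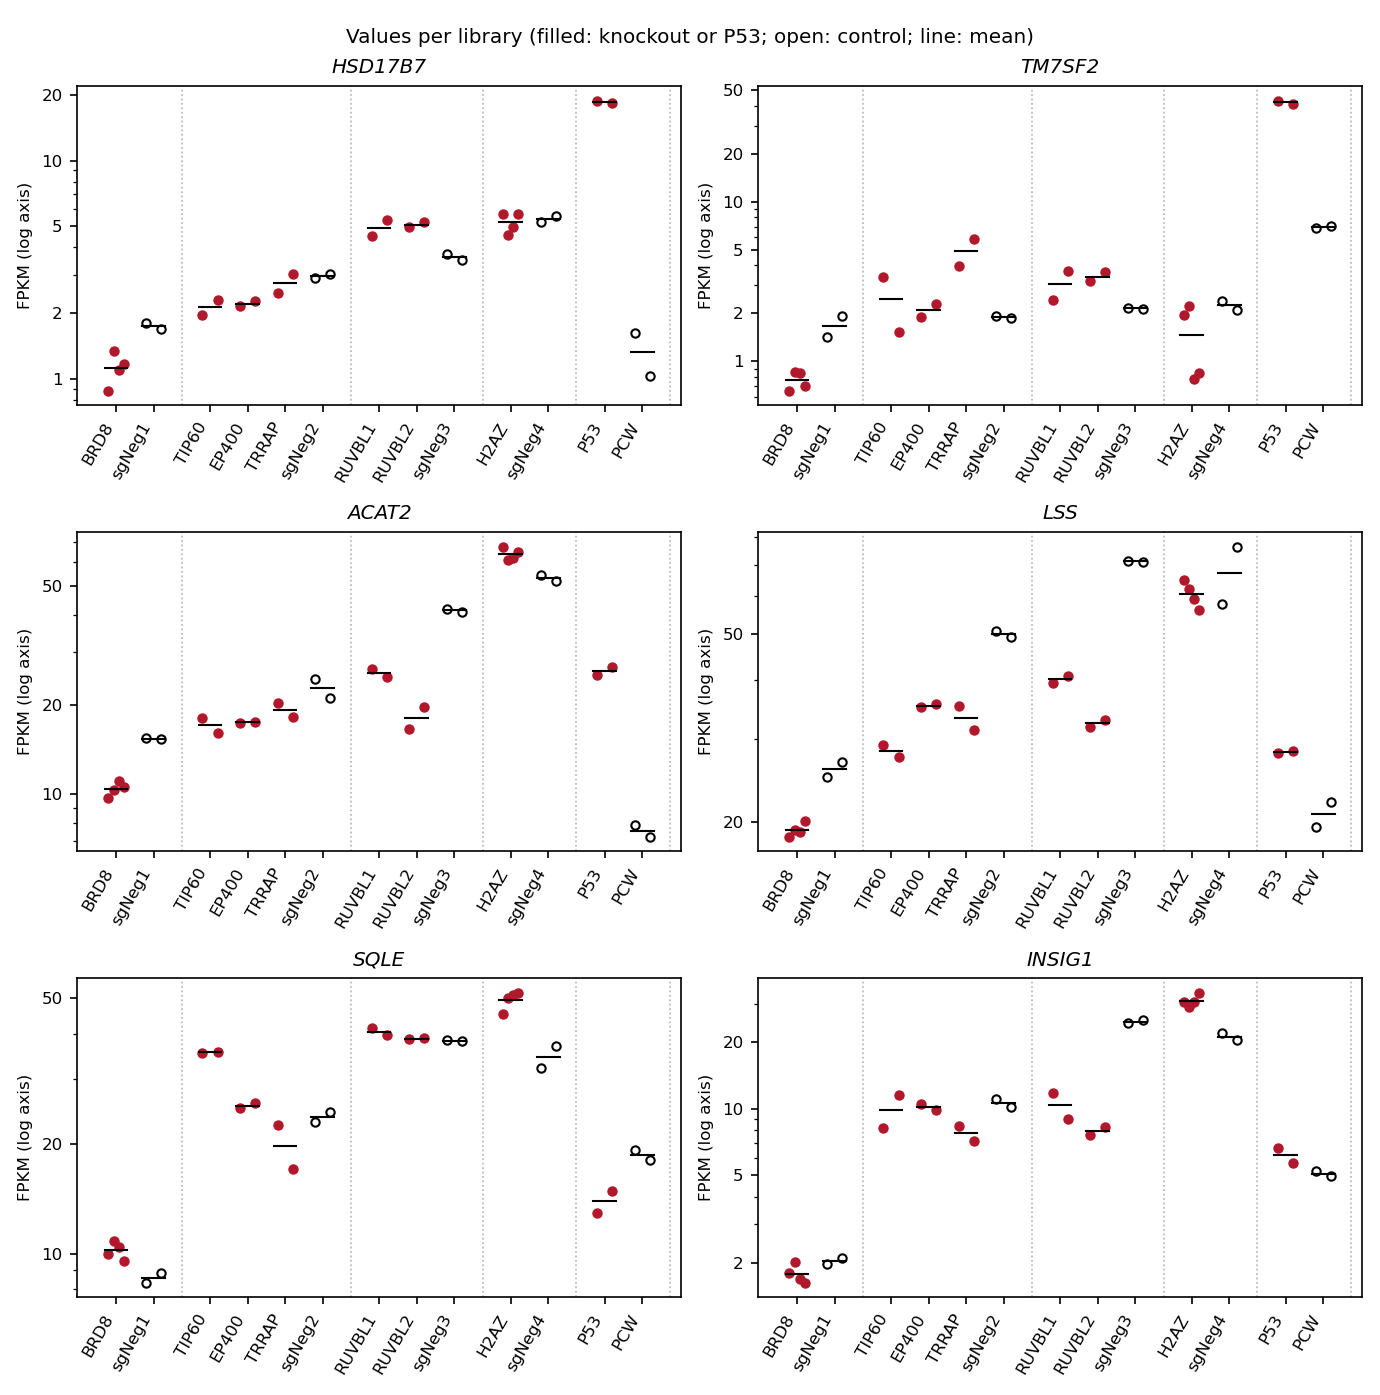
FPKM (log axis) of HSD17B7, TM7SF2, ACAT2, LSS, SQLE and INSIG1 in each library; filled points are knockouts or P53, open points controls, lines group means, and dotted lines separate sections, between which levels are not comparable. HSD17B7, TM7SF2 and ACAT2 are far above PCW in P53, LSS lies below its controls in BRD8, TIP60, EP400, TRRAP, RUVBL1 and RUVBL2, and INSIG1 is low in RUVBL1 and RUVBL2 and high in H2AZ.

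In H2AZ knockout most of the called genes rose. Of 31 genes, 5 were called higher and 1 lower, beside 2.60% higher and 3.42% lower of the 11087 genes tested (6.02% called), and the median was 0.26 against -0.01 over all genes. FADS1 had 85.5, 91.8, 94.2 and 91.0 FPKM in the 4 H2AZ libraries, against 57.3 and 65.6 in the sgNeg4 pair (0.56 ± 0.10, adjusted p = 0.00939). INSIG1 had 30.6, 28.99, 30.4 and 33.6 FPKM in H2AZ libraries, against 22.0 and 20.5 in sgNeg4 (0.52 ± 0.09, adjusted p = 0.0117). SQLE had 45.2, 49.95, 51.1 and 51.9 FPKM in H2AZ libraries, against 32.2 and 37.0 in sgNeg4 (0.51 ± 0.10). All H2AZ libraries lay above both controls in these genes. CYP51A1 had 46.8, 51.9, 48.7 and 50.1 FPKM in H2AZ libraries, against 39.7 and 33.8 in sgNeg4 (0.42 ± 0.10). MVD, the mevalonate diphosphate decarboxylase, had 42.6, 31.5, 31.5 and 28.3 FPKM in H2AZ libraries, against 19.0 and 23.3 in sgNeg4 (0.63 ± 0.15). ELOVL5 alone fell, to 49.3, 53.1, 53.5 and 54.5 FPKM in H2AZ libraries, against 73.8 and 78.8 in sgNeg4 (-0.53 ± 0.09, adjusted p = 0.00876).

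The regulators other than INSIG1 were not called in H2AZ. SREBF1 had 45.6, 39.0, 39.4 and 34.6 FPKM in H2AZ libraries, against 36.9 and 46.7 in sgNeg4 (-0.07 ± 0.13). SREBF2 had 42.1, 39.7, 40.5 and 40.1 FPKM in H2AZ libraries, against 31.3 and 38.6 in sgNeg4 (0.22 ± 0.10). SCAP had 14.9, 13.7, 12.4 and 12.51 FPKM in H2AZ libraries, against 15.5 and 18.7 in sgNeg4 (-0.33 ± 0.12). SREBF1 overlapped its controls, SREBF2 lay above both and SCAP below both. The sgNeg4 pair itself was uneven in FASN, at 24.0 and 63.1 FPKM, beside 74.9, 70.2, 75.6 and 59.2 in H2AZ libraries (0.82 ± 0.29, not called). In TM7SF2 the guides parted: guide 1 gave 1.96 and 2.24 FPKM and guide 2 gave 0.772 and 0.846, against 2.40 and 2.09 in sgNeg4. The count of 6 calls was 3 without H2AZ guide 1 replicate 2 or guide 2 replicate 1. Over all genes these fits called 320 and 348, against 667 in the full fit. Without sgNeg4 replicate 2, which leaves 1 control library, calls rose both among the 31 and over all genes. INSIG1, ELOVL5 and FADS1 were called with any 1 library left out. With the libraries of either guide alone 0 of the 31 were called (134 and 233 of all genes). With all 8 sgNeg libraries as the control 13 were higher and 3 lower. Over all genes that control called 2769, against 667 as reported.

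The H2AZ effect was tested against those of the other knockouts. It differed from the BRD8 effect in 13 of 30 genes, all above it, beside 7.81% of all genes tested. H2AZ minus BRD8 was 1.49 ± 0.11 in SCD, 1.43 ± 0.15 in FADS2, 1.15 ± 0.16 in SREBF1 and 0.81 ± 0.10 in FADS1. Against TIP60 the difference was called in 20 of 31 genes, with TIP60 below H2AZ in each (27.4% of all genes), and against RUVBL2 in 19 of 31, with RUVBL2 below H2AZ in each (19.2%). SQLE was not among those that differed between TIP60 and H2AZ (0.06 ± 0.20). Between the other pairs the difference was called in 11 of 30 genes for TIP60 and BRD8 (31.6% of all genes), 12 of 30 for RUVBL2 and BRD8 (23.4%) and 6 of 31 for RUVBL2 and TIP60 (27.7%). The TIP60 effect was below the BRD8 effect in ELOVL6 and FADS1 (differences -1.38 ± 0.16 and -1.15 ± 0.24), and the RUVBL2 effect was below the TIP60 effect in INSIG1 (-1.41 ± 0.25). ELOVL6 had 1.60 and 1.54 FPKM in sgNeg1, against 19.4 and 18.5 in sgNeg2. The added 1 FPKM shrinks its BRD8 effect more, and the part of this was not tested.

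EP400 and TRRAP, the remodelling ATPase and the large scaffold of the complex, lowered fewer of these genes. In EP400, 3 of 31 were called lower and 0 higher, beside 2.27% and 1.56% of 11382 genes (3.83% called), with a median of -0.28 against -0.03. They were ELOVL6, at 12.6 and 12.1 FPKM in EP400 libraries, against 19.4 and 18.5 in sgNeg2 (-0.58 ± 0.14, adjusted p = 0.0323), LSS, at 35.1 and 35.4 FPKM, against 50.8 and 49.3 in sgNeg2 (-0.49 ± 0.12), and SREBF1, at 28.4 and 29.2 FPKM, against 43.6 and 41.5 in sgNeg2 (-0.55 ± 0.14, adjusted p = 0.045). EP400 values lay below both controls in each. None of the 3 calls held when any of the 4 libraries was left out, and calls over all genes fell in each of these fits too.

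In TRRAP, 6 of 31 were called lower and 1 higher, beside 7.71% and 6.54% (14.2% called), with a median of -0.23 against -0.02. FADS2 had 130.1 and 78.4 FPKM in TRRAP libraries, against 218 and 197 in sgNeg2 (-1.03 ± 0.22, adjusted p = 0.00941). LSS had 35.2 and 31.2 FPKM in TRRAP libraries, against 50.8 and 49.3 in sgNeg2 (-0.58 ± 0.12). FADS1 had 35.8 and 21.2 FPKM in TRRAP libraries, against 52.0 and 54.1 in sgNeg2 (-0.92 ± 0.21). Guide 2 was lower than guide 1 in all 3. TM7SF2, the gene called higher, had 3.98 and 5.83 FPKM in TRRAP libraries, against 1.93 and 1.87 in sgNeg2 (1.01 ± 0.24). FDPS had 56.7 and 36.7 FPKM in TRRAP libraries, against 86.8 and 71.6 in sgNeg2 (-0.78 ± 0.20). SREBF2 (25.5 and 22.2 FPKM in TRRAP libraries, against 31.6 and 35.2 in sgNeg2) and ELOVL6 (16.005 and 11.4 in TRRAP libraries, against 19.4 and 18.5 in sgNeg2) fell by 0.47 and 0.46 on the log2 scale. SREBF1 and SCD had -0.12 and -0.17 in TRRAP and were not called. The count fell without either sgNeg2 library or without TRRAP guide 2, and the count over all genes fell with it. No call held in all of these fits, and each leaves 1 library in a group. The sum of 4 leukocyte markers, almost wholly CD68, was 37.1 to 74.1 FPKM in TRRAP libraries, against 14.7 to 18.6 in sgNeg2, and its part in these results was not tested.

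TIP60 knockout was also set directly against EP400 and TRRAP, without the shared controls. The targeted mRNA was at 51.5% of control in TIP60, 48.5% in EP400 and 82.3% in TRRAP, where it was not called. The part of unequal loss of the targets was not tested. Against EP400, 11 genes were lower and 1 higher in TIP60, beside 13.5% and 7.82% of all genes; against TRRAP, 12 were lower and 2 higher, beside 23.7% and 14.6%. Of all calls, 36.8% were higher against EP400 and 38.1% against TRRAP, and 50.4% and 50.5% after rescaling. SREBF1 had 10.2 and 14.2 FPKM in TIP60 libraries, against 28.4 and 29.2 in EP400 (-1.20 ± 0.14, adjusted p = 0.000108) and 37.0 and 41.2 in TRRAP (-1.62 ± 0.14, adjusted p = 2.74e-06). ELOVL6, SCD, ACACA, CYP51A1, DHCR7, FADS2, FASN and SCAP were lower in TIP60 in both comparisons. For SCD the log2 differences were -1.08 against EP400 and -1.36 against TRRAP, and for CYP51A1 -0.70 and -0.93. DHCR7 had 14.4 and 12.4 FPKM in TIP60 libraries, against 20.8 and 21.9 in EP400 and 23.8 and 26.2 in TRRAP, and FASN had 38.3 and 43.6 in TIP60 libraries, against 63.8 and 63.2 in EP400 and 64.3 and 65.3 in TRRAP. SQLE was higher in TIP60 than in either (0.47 and 0.83). The count against EP400 was 7 without EP400 guide 2 or TIP60 guide 1.

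Of the other 9 knockouts, GAS41, a YEATS-domain reader, had 1 gene called: DHCR7, at 34.1 and 33.0 FPKM in GAS41 libraries, against 23.4 and 20.4 in sgNeg2 (0.59 ± 0.13, adjusted p = 0.0489), beside 0.94% of all genes called (0.58% of all genes higher). This call was lost without either sgNeg2 library or either GAS41 library. HMGCS1 (0.57) and INSIG1 (0.79) followed at adjusted p = 0.0548, and 14 of 18 sterol genes had a positive value, with a median of 0.35 against -0.03 over all genes. In DMAP1, 28 of 31 genes had a positive value, with a median of 0.38 against -0.01 over all genes, yet 0 of 31 and 0 of 11382 genes were called; at an unadjusted p under 0.05 the counts were 14 and 1021. HMGCS1 had 17.1 and 13.6 FPKM in DMAP1 libraries, against 7.91 and 8.71 in sgNeg2 (0.80 ± 0.13, adjusted p = 0.0755). INSIG1 had 25.3 and 19.1 FPKM in DMAP1 libraries, against 11.1 and 10.2 in sgNeg2 (0.99 ± 0.18, adjusted p = 0.14). Both DMAP1 libraries lay above both controls in these 2 genes, guide 1 the higher. Without DMAP1 guide 2, 4 of the 31 genes were called higher, among 40 of all genes.

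None of the 31 genes was called in ACTL6A (0.782% of all genes called), MRGBP (0.264%, of which 0.0879% lower), ING3 (0.0264%), MEAF6, VPS72, MORF4L1 or MORF4L2 (0 of all genes called in each of the last 4, with 415, 402, 85 and 230 genes at an unadjusted p under 0.05). These counts can rest on 1 library: without MORF4L2 guide 1, 1312 genes were called in MORF4L2, 2 of the 31 among them; without ACTL6A guide 1, 380 were called in ACTL6A with 1 of the 31, and without MRGBP guide 2, 239 in MRGBP with 1 of the 31. In MRGBP the share of all calls that were higher was 66.7%, and 85.7% after rescaling. The smallest adjusted p among these was that of DHCR7 in ACTL6A (0.51 ± 0.13, adjusted p = 0.0859), followed by HMGCS1 in ACTL6A (0.42, adjusted p = 0.138) and LSS in MRGBP (-0.47, adjusted p = 0.143). In MRGBP both fatty acid medians were low, at -0.30 for guide 1 and -0.33 for guide 2, while the sterol medians were 0.08 and -0.27. Targeted mRNA was not called lower in 8 of the 16 knockouts, TRRAP, DMAP1, MRGBP, ING3, MEAF6, VPS72, MORF4L1 and MORF4L2.

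**Figure D5:**
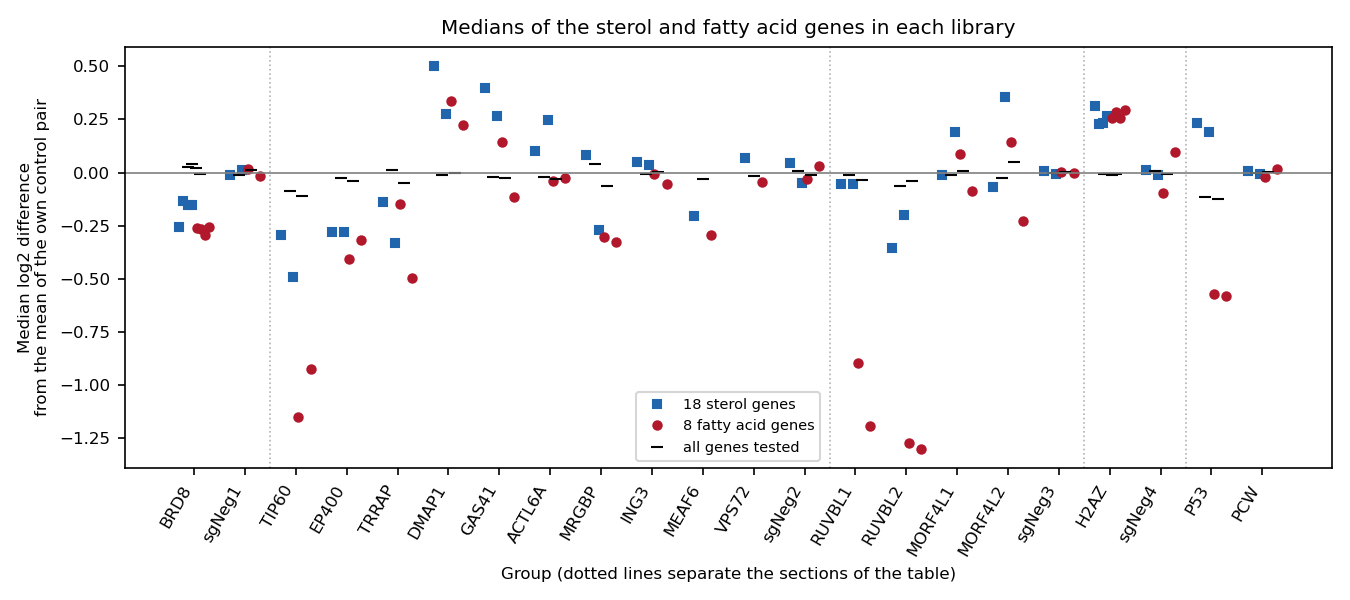
Median log2 difference from the mean of the own control pair, in each library, over the 18 sterol genes (squares; 17 in the BRD8 section), the 8 fatty acid genes (circles) and all genes tested (dashes); dotted lines separate sections. Fatty acid medians lie between -1.30 and -0.90 in TIP60, RUVBL1 and RUVBL2, sterol medians in RUVBL1 stay at -0.05 and -0.06, and in P53 the sterol medians are above and the fatty acid medians below 0.

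The plot of medians per library shows how evenly the libraries of a group carried these patterns. In P53 the sterol medians were 0.23 and 0.19 and the fatty acid medians -0.57 and -0.58, against -0.11 and -0.12 over all genes. In RUVBL1 the fatty acid medians were -0.90 and -1.19, and in RUVBL2 -1.27 and -1.30. TIP60 guide 1 had -1.15 and guide 2 -0.93 for the fatty acid genes, and -0.29 and -0.49 for the sterol genes, so the guides ranked differently for each arm. In H2AZ all 4 libraries had sterol medians between 0.23 and 0.31 and fatty acid medians between 0.26 and 0.30. The DMAP1 libraries had sterol medians of 0.50 and 0.28.

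Other genes of lipid metabolism, listed beside the 31, are given by their counts and examples. The background is that 45.9% of all genes tested were called in BRD8, 42% in TIP60, 27.8% in RUVBL1, 33.4% in RUVBL2, 84.3% in P53 and 6.02% in H2AZ. The P53 counts below are near the share in P53. Of 13 SREBP-linked genes, 5 fell and 2 rose in BRD8 (11 tested), 5 fell and 1 rose in TIP60, 5 fell in RUVBL1, 6 fell in RUVBL2, and 9 fell and 2 rose in P53 (12 tested in each), with medians of -0.12, -0.39, -0.35, -0.53 and -0.49. PCYT2, an enzyme of phosphatidylethanolamine synthesis, fell by 0.99 in BRD8, 1.08 in TIP60, 0.82 in RUVBL1 and 1.16 in RUVBL2 on the log2 scale, and rose by 1.13 in P53. ACSS2, which makes acetyl-CoA from acetate, fell by 0.48 in BRD8, 0.71 in RUVBL1, 0.99 in RUVBL2 and 0.38 in P53. ACSL3, an acyl-CoA synthetase, fell by 0.49 in BRD8, 0.82 in TIP60, 0.50 in RUVBL1, 0.56 in RUVBL2 and 1.07 in P53. TMEM97, a sterol-regulated membrane protein, rose by 1.12 in TIP60 and fell by 0.70 in P53. NPC1, which exports cholesterol from lysosomes, rose by 0.36 in BRD8 and 0.46 in H2AZ.

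Among 8 genes of sterol efflux and the liver X receptor path, LPCAT3, a phospholipid-remodelling acyltransferase, was called lower in BRD8 (-0.43 ± 0.08), EP400 (-0.46 ± 0.11), TIP60 (-0.81 ± 0.11), RUVBL1 (-0.59 ± 0.11) and RUVBL2 (-0.60 ± 0.11) and higher in P53 (2.13 ± 0.06, adjusted p = 7.17e-08). In BRD8, 3 of the 5 tested rose: NR1H2, a liver X receptor (0.59), SOAT1, which esterifies cholesterol (0.46), and NPC2, a lysosomal cholesterol carrier (0.20). In TRRAP, NPC2 fell by 0.97. In P53, 5 of the 8 rose and 1 fell, beside 84.3% of all genes called, with a median of 0.62, and MYLIP, a ligase for lipoprotein receptors, rose by 0.90. ABCA1, the sterol exporter, rose by 0.47 in H2AZ and 0.83 in P53. Of 11 fatty acid oxidation genes, 4 fell in TIP60 (median -0.49), ECI1 (-1.44) among them, and in P53 5 rose and 4 fell of 10 tested, with CPT1A, the gate of mitochondrial import, at 0.93 and ACADM at -1.36. Of 8 genes of isoprenoid branches, 6 fell and 0 rose in P53, PDSS1, of ubiquinone synthesis, by 1.36; in TIP60 3 rose and 1 fell. Of 8 genes of AMPK and mTOR signalling, SESN2, a stress-induced sestrin, rose by 0.75 in BRD8, 1.24 in H2AZ, 1.15 in RUVBL1, 1.05 in RUVBL2 and 0.29 in P53. PRKAB1, an AMPK subunit, rose by 1.05 in RUVBL1, 1.04 in RUVBL2 and 2.20 in P53.

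The other called genes with the largest changes in these lists were spread over both directions. The values here are log2 fold changes. Of the SREBP-linked list, MID1IP1 fell by 1.02 in TIP60 and 0.74 in TRRAP, LPIN1, a phosphatidate phosphatase, by 0.65 in RUVBL1, RDH11, a retinol dehydrogenase, by 0.63 in RUVBL2, and MBTPS2, a protease that cuts SREBPs, by 1.06 in P53. NPC2 rose by 0.88 in P53. Of the oxidation list, ACADM fell by 0.43 in BRD8. ETFDH, an electron carrier's oxidoreductase, fell by 0.65 in RUVBL1, 0.48 in RUVBL2 and 0.97 in P53. ACADS, a short-chain acyl-CoA dehydrogenase, fell by 0.97 in TIP60 and rose by 0.73 in TRRAP, where ECI1 fell by 0.76, and ACAA2, a thiolase, fell by 0.80 in RUVBL2. Of the isoprenoid list, FNTB, a farnesyltransferase subunit, rose by 0.72 and PDSS1 by 0.59 in TIP60, where DHDDS, of dolichol synthesis, fell by 0.44. In BRD8, PDSS1 rose by 0.36 and PGGT1B, a subunit of a prenyl transferase, by 0.24, while COQ2, of ubiquinone synthesis, fell by 0.25. COQ2 fell by 0.64 in RUVBL2, and PGGT1B and PDSS2 fell by 0.77 and 0.40 in P53. Of the signalling list, PRKAA1, an AMPK catalytic subunit, fell by 0.51 in TIP60, 0.66 in RUVBL1, 0.55 in RUVBL2 and 0.89 in P53. SESN1, a sestrin, fell by 0.31 in BRD8 and 0.90 in TIP60, and RPTOR, a partner of mTOR, by 0.44 in TIP60. PRKAB2, an AMPK subunit, rose by 0.34 in BRD8, and TSC2, an inhibitor of mTOR signalling, by 0.54 in P53.

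In 14 of the 31 genes, exons overlap another gene in the GENCODE v29 annotation. FADS1 and FADS2 share 142 exon bases on opposite strands, FADS2 shares 49 with FEN1 on its own strand, ACAT2 shares 397 with TCP1 and 1106 with SOD2, MVK 69 with MMAB, and FDPS 476 with the antisense gene RUSC1-AS1. The library kit keeps strand, but whether the counting used it is not given in the sources used here, so reads of such pairs may have been shared. In P53, RUSC1-AS1 passed the filter on low values through its P53 libraries alone (2.69 to 3.11 FPKM, against 0.147 to 0.452 in PCW). Its rise of 1.59 beside the fall of FDPS therefore supports nothing. MMAB was not called in any of the comparisons with MVK called. FEN1 was called lower with FADS2 in BRD8 (-0.23) and P53 (-0.70), and higher in TIP60 (0.44), where FADS2 fell. It was not called in RUVBL1, RUVBL2 or TRRAP. Copies of HSD17B7, FDPS, CYP51A1 and SCD in pseudogenes could also take or lend reads.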

How the data were processed

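RNA-seq of 48 libraries was analysed from the deposited gene table. Per the submitters' processing notes, the tools were TopHat2, Cufflinks and Cuffdiff with build hg19; their versions, and whether counting used strand, are not given in the sources used here. The deposited values are FPKM per gene, made by the authors in 5 separately normalized sections. Depth was estimated from the smallest steps of the FPKM values, since counts are not used here, and no counting interval is given.

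From these, log2(FPKM + 1) was fitted per section with limma 3.58.1 (R 4.3.3; empirical Bayes with trend, two-sided, all libraries of the section sharing 1 spread), over genes reaching 1 FPKM in 2 or more of its libraries. Log2 fold changes understate changes of low genes, so effects of a gene in sections of unlike level are not shrunk alike. P-values were adjusted over all genes tested, with a threshold of 0.05. Effects in different sections were compared by the difference of their log2 fold changes, adjusted over all genes shared. The test was checked on simulated data. Columns MEAF6 guide 2 and VPS72 guide 2, identical in every gene, were left out.

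The genes and lists were chosen with earlier results of these data known. All 31 are accounted for. Values per library are given for up to 8 called genes per comparison, in order of adjusted p, and for SREBF1, SREBF2, SCAP and INSIG1 in BRD8, H2AZ, TIP60, RUVBL1, RUVBL2 and P53; of the other lists, up to 3 called genes per list and comparison with the largest change are named, except 1 that is not reported here. Further genes given beyond this rule were chosen after their values were seen. Promoter windows come from RefSeq (GRCh38.p14) and exon overlaps from GENCODE v29. Alternatives were another pseudocount, no filter, rescaled libraries, other fits and controls, the replicate block, single guides, and each library left out.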

Additional observations from a re-analysis of the deposited data

Results flagged for a closer look

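Single libraries stood apart from the other 3 of their group in 4 of the 61 gene and group combinations examined, where chance gives about 1 in 20. MVD was 4.71 FPKM in BRD8 guide 2 replicate 2, against 5.21 to 5.25 in the other BRD8 libraries. DHCR7 was 5.41 FPKM in BRD8 guide 1 replicate 1, against 6.69 to 6.84. PMVK was 58.7 FPKM and ACLY 158 in H2AZ guide 1 replicate 1, against 49.1 to 50.2 and 174 to 177 in the other H2AZ libraries.

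The difference between the effects of pairs of comparisons was tested for each gene. From P53, 21 of 30 differed for BRD8 (76.7% of all genes tested), and of 31, 20 for H2AZ (63.2%), 15 for TIP60 (60.1%), 16 for RUVBL1 (56.9%) and 15 for RUVBL2 (56.5%), so these counts are near or below the share of all genes. From BRD8, of 30, 13 differed for H2AZ (7.81%), 11 for TIP60 (31.6%) and 12 for RUVBL2 (23.4%). From H2AZ, of 31, 20 differed for TIP60 (27.4%) and 19 for RUVBL2 (19.2%), and 6 differed between RUVBL2 and TIP60 (27.7%).

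Some genes were called in opposite directions. The BRD8 effect minus the P53 effect, on the log2 scale, was -3.46 in HSD17B7, -3.03 in TM7SF2, -2.18 in ACAT2, -1.36 in EBP, -0.995 in FDFT1, -0.83 in LSS and 0.62 in SQLE. The BRD8 effects of HSD17B7, TM7SF2 and SQLE turned sign against all 8 sgNeg libraries (0.0954, 0.34 and -0.0043), and TM7SF2 passed the filter in that section through sgNeg1 alone, so its lower call there supports nothing. H2AZ minus P53 was 1.15 in FADS1, 1.03 in CYP51A1 and 0.91 in SQLE. TIP60 minus P53 was -1.34 in FDFT1, -1.28 in PMVK, -1.22 in LSS and 0.97 in SQLE. RUVBL1 minus P53 was -1.42 in INSIG1 and -1.23 in LSS, and RUVBL2 minus P53 was -2.82 in ACAT2, -1.76 in INSIG1 and -1.53 in LSS. H2AZ minus BRD8 was 0.81 in FADS1. TIP60 minus H2AZ was -1.97 in FADS1 and -1.44 in CYP51A1, and RUVBL2 minus H2AZ was -2.05 in INSIG1 and -1.78 in FADS1.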

How the results depend on the processing

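Of 109 calls of a gene in a comparison, 48 held under every alternative run, and the cause of the changes below was not tested except where fewer libraries or another spread made them. A pseudocount of 0.1 FPKM gave medians of -0.25 in BRD8 and -0.69 in TIP60, and 0 calls in the 9 knockouts with few calls together (1 as reported). No filter gave 0 calls in EP400 and 0 in those 9. Rescaled libraries gave medians of -0.24 in EP400, -0.57 in TIP60, -0.30 in RUVBL1, -0.42 in RUVBL2 and -0.10 in P53, and 3 calls in the 9. Fitting the libraries of a comparison alone gave 9 calls in EP400, 3 in TRRAP, 20 in RUVBL1, 27 in RUVBL2, 8 for TIP60 against TRRAP, 2 for RUVBL2 against RUVBL1 and 8 in the 9. Over all genes that fit called 1515 in EP400, 792 in TRRAP, 6113 in RUVBL1 and 6817 in RUVBL2. As reported these were 436, 1621, 3077 and 3698. A single spread estimate pooled across the guide RNA sections gave 8 in BRD8, 11 in H2AZ, 5 in EP400 and 15 in the 9. Over all genes it called 2007 in BRD8, 1050 in H2AZ and 1179 in EP400, against 3885, 667 and 436 as reported. Keeping the identical columns gave 0 in EP400. Either H2AZ guide alone gave 0 calls.

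With all 8 sgNeg libraries as the control, after rescaling, the counts were 16 in H2AZ, 7 in EP400, 7 in RUVBL1, 9 in RUVBL2 and 4 in the 9, and the medians -0.62 in BRD8, -0.31 in EP400, -0.38 in TRRAP, -0.06 in RUVBL2 and 0.09 in RUVBL1, which turned sign. Turned values in BRD8 were -0.0043 (SQLE), 0.34 (TM7SF2) and 0.0954 (HSD17B7). In RUVBL1 they were 0.27 (DHCR7), 0.0864 (SREBF2) and 0.0942 (ELOVL6), and in RUVBL2 0.0084 (DHCR7), 0.0842 (SREBF2) and 0.0859 (ELOVL6).

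Leaving out each library gave 3 to 10 calls in H2AZ, 0 to 0 in EP400, 0 to 8 in TRRAP, 7 to 9 in RUVBL1, 10 to 11 in RUVBL2, 7 to 11 for TIP60 against EP400 and 0 to 5 in the 9. The medians ran over -0.26 to -0.21 in BRD8, -0.62 to -0.57 in TIP60, -0.35 to -0.30 in RUVBL1, -0.53 to -0.42 in RUVBL2 and -0.20 to -0.14 in P53. Where 1 library is left in a group, it is assumed to vary like the others. Deviations of same-numbered libraries correlated by -0.465 to 0.579 in the sgNeg2 section and by 0.317 to 0.716 among the 4 knockouts of the sgNeg3 section, but by -0.081 to -0.023 between these and sgNeg3, so not every pair passed 0.1 and the numbers were not taken to pair control and knockout. With the replicate block 108 of 109 calls held, RUVBL1 had 15 calls, RUVBL2 19 and the 9 had 0. An FPKM of 1 stands for as few as 4.3 fragments per kilobase in the H2AZ section, which limits TM7SF2, HSD17B7 and SC5D most.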
